A study of Mus musculus with 6 samples.

Results

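The 5 thrombospondin genes of the mouse (Thbs1, Thbs2, Thbs3, Thbs4 and Comp) and the genes of their receptors CD47 and CD36 were examined in mammary cells that had become resistant to an inhibitor of EGFR. These 7 genes, of 19938 that could be tested, were taken as a gene family with its receptors. For each gene the rule took the brightest probe set that carries the symbol of this gene alone, so that the mean intensity over all arrays chose the probe set. This choice mattered for Cd47 only, as the other 6 genes had a single probe set. The genes were proposed with earlier results of these arrays known, and Thbs1 was listed by the study from the same arrays.

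NME cells derive from NMuMG, a mouse mammary epithelial line, and were transformed with virally delivered EGFR, and AGR cells came from 1 colony of NME cells that grew in 3D culture with 1 µM AG1478, an inhibitor of the EGFR kinase. Both therefore carry the overexpressed EGFR, and the AGR cells represent a single colony. Before RNA was taken the colony had been expanded in 2D culture, and the established resistant lines were kept without drug. Total RNA of each line was hybridized to 3 microarrays of the type Affymetrix Mouse Gene 1.0 ST.

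Thrombospondins are large, secreted, calcium-binding glycoproteins of the extracellular matrix that bind to other matrix proteins and to cells. Thbs1 and Thbs2 encode the subgroup that carries type 1 repeats, through which thrombospondin-1 binds CD36 and activates latent TGF-β, whereas Thbs3, Thbs4 and Comp encode the subgroup without these repeats. The C-terminal domain of thrombospondin-1 binds CD47, which is also the ligand of SIRPα and protects cells from being engulfed by macrophages. CD36 is a scavenger receptor that takes up long-chain fatty acids and passes the anti-angiogenic signal of thrombospondin-1 in endothelial cells.

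The array median lay between 190.4 and 200.8 intensity units, and log2 of the deposited intensity was used throughout. The median of all probe sets and arrays was 7.60 on this scale and the 25th percentile was 6.12. No detection calls came with the files, and values below the median cannot be told apart from background. The median SD of a gene within a cell line was 0.07. In 36 genes AGR replicate 2 was more than 2-fold away from the log2 average of the remaining AGR arrays. Measured in this way, any other array was that far from the rest of its line in at most 7 genes. Epithelial markers were present in part: Krt8, Krt18, Krt19 and Cdh1 had log2 intensities above 12 in either cell line (Krt19 and Cdh1 were lower in AGR cells, with log2 fold changes of -1.04 and -0.60), while Epcam, Cldn7 and Esrp1 were under the overall median in both. The labels do not say whether separate cultures were used for the 3 arrays of a line, so the p-values measure the spread between these arrays only. As RNA of whole cultures was measured, fewer cells of a type and less RNA per cell cannot be told apart.

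Thbs1 was the thrombospondin gene with a large difference. Its log2 intensity was 9.65, 9.43 and 9.69 in NME cells and 13.04, 12.88 and 13.04 in AGR cells. All AGR arrays lay far above all NME arrays, and the spread within either line was small beside the gap. On the linear scale these were 803.5, 689.7 and 824.2 units against 8430.7, 7547.1 and 8447 units. The log2 fold change was 3.40 (SE 0.08, 95% interval 3.20 to 3.60), or 10.6-fold, and 11 of the 19938 genes had a larger increase. As the study had picked this gene on the same arrays, the difference is given as a description without a p-value.

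Thbs2, the closest relative of Thbs1 and like it anti-angiogenic, had log2 intensities of 7.06, 7.11 and 6.96 in NME cells and 7.17, 7.11 and 7.11 in AGR cells. The arrays of the lines overlapped, and all values were below the median of all probe sets. The log2 fold change of 0.09 did not pass the test (95% interval -0.04 to 0.21, adjusted p = 0.323 from limma). At this level signal and background cannot be separated. The deposited value of Thbs2 was identical on NME replicate 2, AGR replicate 2 and AGR replicate 3. Such exact repeats occurred in 52.3% of the genes below the median and in 16.5% of the genes at or above it, and Comp was the other family member with one.

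Of the thrombospondins without type 1 repeats, Thbs3 had log2 intensities of 9.02, 8.92 and 9.02 in NME cells and 8.73, 8.63 and 8.72 in AGR cells. Every AGR array lay below every NME array. The log2 fold change was -0.30 (SE 0.05, 95% interval -0.42 to -0.17), a decrease by a factor of 1.23 (adjusted p = 0.00703 from limma). Thbs4, which is known from tendon, muscle and heart, had 7.30, 7.47 and 7.28 in NME cells against 7.31, 7.22 and 7.21 in AGR cells. Comp, the cartilage oligomeric matrix protein, had 7.79, 7.72 and 7.66 in NME cells against 7.71, 7.56 and 7.66 in AGR cells. The lines overlapped for both genes, Thbs4 below and Comp close to the median of all probe sets. Neither passed the test, with a log2 fold change of -0.11 for Thbs4 (95% interval -0.26 to 0.05, adjusted p = 0.316 from limma) and of -0.08 for Comp (95% interval -0.21 to 0.06, adjusted p = 0.438 from limma).

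The receptor gene Cd47 had log2 intensities of 12.73, 12.73 and 12.66 in NME cells and 12.34, 12.42 and 12.45 in AGR cells. The AGR arrays were all lower than the NME arrays, although the signal stayed high in both lines. The log2 fold change was -0.30 (SE 0.05, 95% interval -0.42 to -0.19), a decrease by a factor of 1.23 (adjusted p = 0.00408 from limma). The dimmer probe set of Cd47, which the rule did not use, gave 10.75, 10.71 and 10.64 in NME cells against 10.30, 10.39 and 10.32 in AGR cells. It again separated the lines, with a log2 fold change of -0.37 (adjusted p = 0.00237 from limma over all probe sets with 1 symbol). Cd36 was dim in both lines, with 5.62, 5.35 and 5.50 in NME cells and 5.00, 4.81 and 4.87 in AGR cells. Its AGR values were lower than its NME values on every array, but all of them lay below the 25th percentile of all probe sets. The log2 fold change of -0.60 (SE 0.08, adjusted p = 0.00233 from limma) thus comes from intensities of 28 to 49.1 units, where signal and background cannot be separated, and presence of the Cd36 transcript was not shown in either line.

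Together, 4 of the 7 genes passed the test at an adjusted p under 0.05, where 24.2% of all genes did. Of these, 1 was higher in AGR cells (12.6% of all genes) and 3 were lower (11.6% of all genes). A fold change above 2 in addition was reached by Thbs1 alone, against 3% of all genes, 1.5% in each direction. The arrays of the lines did not overlap for 4 of the 7 genes, against 36.4% of all genes. The median log2 fold change was -0.11 for the 7 genes and -0.02 for all genes. Nothing is read from these counts, since the genes were proposed with the results known.

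**Figure D1:**
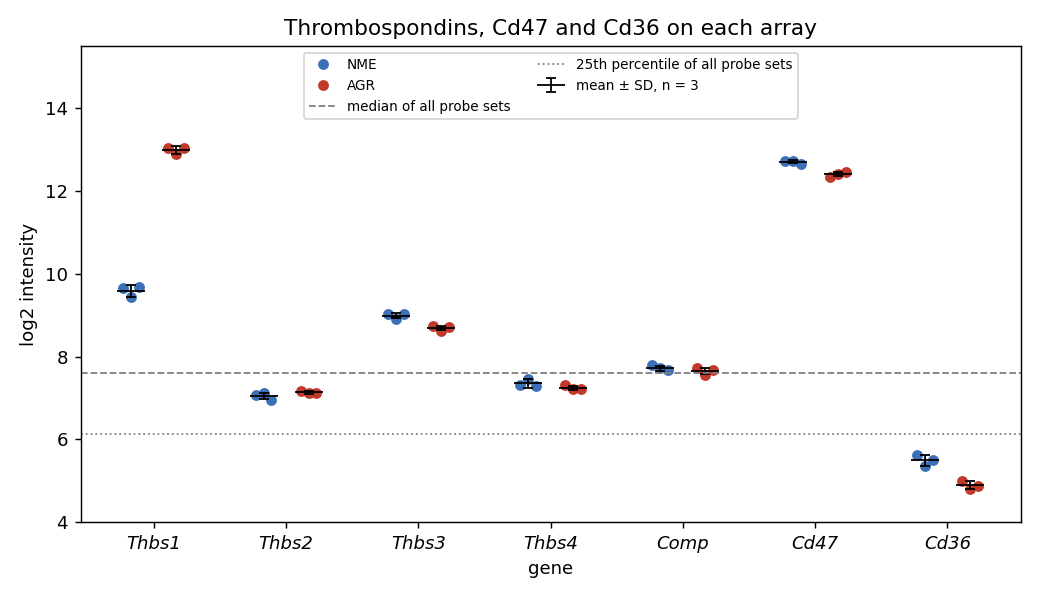
Log2 intensity (y axis) of each gene (x axis) on the 3 NME arrays (blue) and the 3 AGR arrays (red), with mean ± SD in black and the median and the 25th percentile of all probe sets as dashed and dotted lines. Thbs1 rises from 9.59 to 12.99, the Cd36 values all lie below 6.12, and levels of different genes cannot be compared because their probes differ.

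Promoter sequences, from 250 bases before to 50 bases after the start site, were taken from RefSeq (build GRCm38.p6) and held an entry for 5 of the 7 genes. Thbs1 and Comp had no entry. Shown are Thbs2 and Thbs3, relatives of which one lay below and one above the median of all probe sets, and Cd47, which fell by nearly the same amount as Thbs3. Capitals mark matches, on either strand, to the pentamer CCAAT, to the Sp1 box, spelled GGGCGG, and to the TATA box, spelled TATAAA.
Thbs2, chr17:14694213-14694512, minus strand: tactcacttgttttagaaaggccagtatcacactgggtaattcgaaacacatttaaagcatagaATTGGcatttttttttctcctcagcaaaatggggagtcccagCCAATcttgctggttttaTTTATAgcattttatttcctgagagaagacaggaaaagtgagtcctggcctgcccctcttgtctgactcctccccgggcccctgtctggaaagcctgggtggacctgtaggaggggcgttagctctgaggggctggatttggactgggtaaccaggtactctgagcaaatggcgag
Thbs3, chr3:89214930-89215229, plus strand: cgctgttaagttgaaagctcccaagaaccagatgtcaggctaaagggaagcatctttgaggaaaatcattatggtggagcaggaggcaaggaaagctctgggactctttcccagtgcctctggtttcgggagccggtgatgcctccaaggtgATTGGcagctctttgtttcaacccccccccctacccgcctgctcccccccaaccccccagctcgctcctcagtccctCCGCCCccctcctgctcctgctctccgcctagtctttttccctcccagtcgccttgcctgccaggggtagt
Cd47, chr16:49855404-49855703, plus strand: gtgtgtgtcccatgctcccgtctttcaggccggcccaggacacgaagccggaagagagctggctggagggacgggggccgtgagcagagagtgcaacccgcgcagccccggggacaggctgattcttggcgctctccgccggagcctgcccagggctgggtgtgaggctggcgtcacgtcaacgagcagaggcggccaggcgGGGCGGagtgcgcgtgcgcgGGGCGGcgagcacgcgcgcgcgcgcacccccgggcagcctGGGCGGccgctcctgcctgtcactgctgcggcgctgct
In the Thbs3 promoter, the CCAAT box started 98 bases and the Sp1 box 21 bases before the start site. The Cd47 promoter held 3 Sp1 boxes, at 48 and 28 bases before and 13 bases after the start site, and no CCAAT box. The Thbs2 promoter held 2 CCAAT boxes, at 186 and 144 bases before the start site, and a TATA box at 126 bases before it. The G and C content was 48.3% for Thbs2, 59% for Thbs3 and 74% for Cd47. Of 32851 promoters of this length in the table, 37.4% held a CCAAT box, 35.7% an Sp1 box and 13.6% a TATA box, so none of these matches is rare. A second start of Cd47 gave a window that overlapped the one shown. The motifs TGANTCA (AP-1, in 7.81% of the promoters), CACGTG (E-box, in 7.15%) and the CArG box (in 1.63%) had no match in any window of these genes, and GGAATG (TEAD, in 14.7%) had 2 matches in that of Thbs4 that share 1 base. A match describes these letters and not a site.

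Other receptors of thrombospondins were then read from the same fit. Of 18 genes, 7 rose and 4 fell with an adjusted p under 0.05, which is 61.1% of the list against 24.2% of all genes, and the median log2 fold change was 0.01. The transcripts of both subunits of integrin α3β1, a receptor for the N-terminal part of thrombospondin-1, were higher. Itgb1 rose from 11.88, 11.86 and 11.87 to 12.58, 12.66 and 12.68, a log2 fold change of 0.77 (SE 0.04, adjusted p = 5.71e-05 from limma). Itga3 was at 11.60, 11.73 and 11.68 in NME cells and at 12.50, 12.65 and 12.51 in AGR cells, a log2 fold change of 0.88 (SE 0.06). The AGR arrays were higher than all NME arrays for both. Itga5, the α subunit of the fibronectin receptor, was at 9.45, 9.37 and 9.51 in NME cells against 10.98, 11.14 and 11.13 in AGR cells. Its log2 fold change of 1.64 (SE 0.06, adjusted p = 1.15e-05 from limma) was the largest of the list, and Itga6, a laminin receptor subunit, had 0.39. The integrin genes Itgav, Itgb3, Itga4 and Itgam did not pass, with log2 fold changes of -0.085, 0.36, -0.03 and -0.18. Itga4 and Itgam were under the overall median in both lines. The reelin receptor gene Lrp8 rose by 0.71 on the log2 scale, Cacna2d1, a calcium channel subunit that binds thrombospondins at synapses, by 0.36, and the leukocyte integrin gene Itgb2 by 0.39, with both means under the overall median.

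Lrp1, the endocytic receptor that clears thrombospondins from the cell surface, fell. It was at 10.76, 10.85 and 10.98 in NME cells and at 9.69, 9.49 and 9.72 in AGR cells, a log2 fold change of -1.23 (SE 0.08, adjusted p = 0.000117 from limma). The lines were well separated, and Calr, which joins Lrp1 in a complex that binds thrombospondin-1, did not pass with a log2 fold change of 0.01. The heparan sulfate proteoglycan genes Sdc1 and Sdc4 had log2 fold changes of -0.28 and -0.36, and the lipoprotein receptor gene Vldlr had -0.34. Sirpa, the partner of CD47, was faint in both lines and did not pass with a log2 fold change of -0.13. The calls of Lrp8, Sdc4 and Vldlr were lost with the two-sided test of the methods and without some single arrays.

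**Figure D2:**
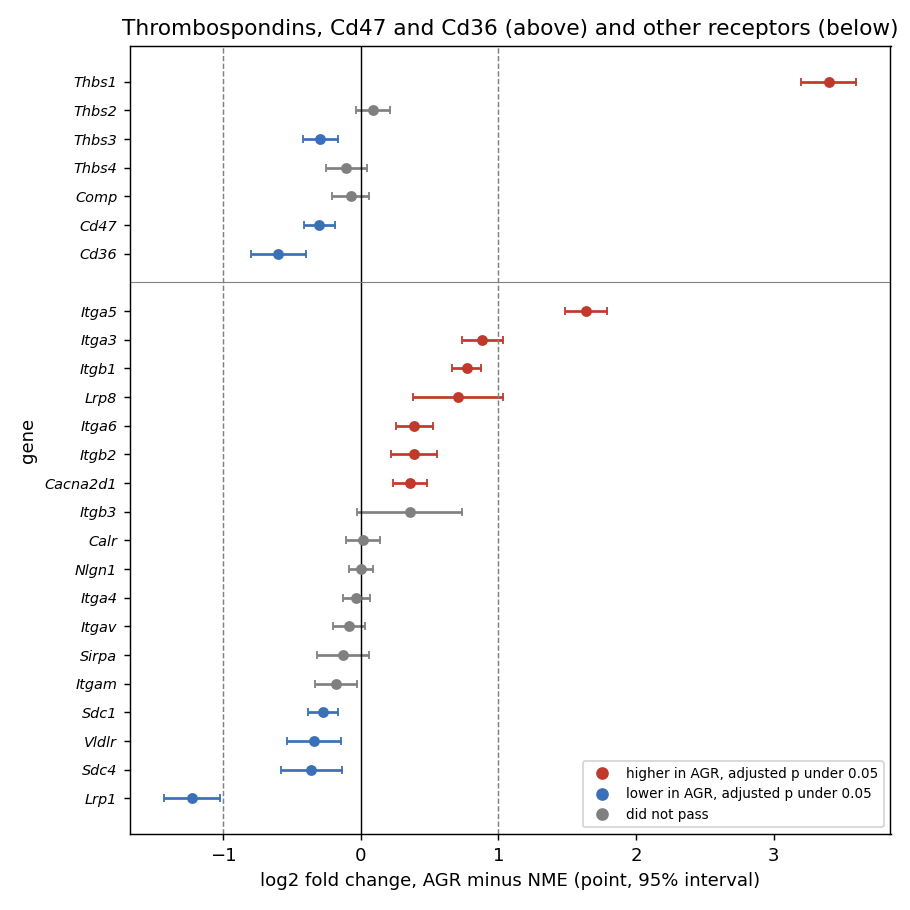
Difference of mean log2 intensity, AGR minus NME (x axis, log2 fold change, point with 95% interval) of the thrombospondin genes, Cd47 and Cd36 (above the line) and of 18 other thrombospondin receptors (below the line). Red marks genes that rose and blue those that fell (adjusted p under 0.05), gray the rest, the dashed lines mark a 2-fold change, and Thbs1 at 3.40, Itga5 at 1.64 and Lrp1 at -1.23 lie beyond them.

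Among 27 measured ligands, proteases and matrix partners of thrombospondins, 5 genes were higher and 1 was lower, that is 22.2% against 24.2% of all genes, with a median log2 fold change of -0.02. Tgfb2, whose latent product is a form of TGF-β, had a log2 fold change of 1.49, from 8.12, 7.90 and 8.11 in NME cells to 9.51, 9.49 and 9.59 in AGR cells. The 3 AGR arrays all exceeded the NME arrays. Tgfb1, the form whose activation by thrombospondin-1 is best known, did not pass with -0.17, and Tgfb3, a faint signal, did not pass with -0.06. Fn1, fibronectin, had a log2 fold change of 1.44, and Col12a1, a fibril-associated collagen, of 1.06. The growth factor gene Fgf2 rose by 0.40 on the log2 scale at a faint signal, and the gelatinase gene Mmp2 rose by 0.52. Vegfa fell by 0.49 on the log2 scale, a call that was lost with the two-sided test of the methods and without each of 4 arrays. The cartilage matrix partners of Comp (Matn1, Matn3, Col2a1 and Acan among them) did not pass.

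Type 1 repeats also occur in proteins outside the family. Of 59 such genes measured, 9 were higher and 3 were lower, or 20.3% against 24.2% of all genes, and the median was -0.02. Without single arrays between 7 and 11 of these genes passed instead of 12, and 8 passed with the two-sided test of the methods. The metalloprotease gene Adamts6 had the largest difference, from 7.74, 7.63 and 7.65 to 9.64, 10.17 and 9.77, a log2 fold change of 2.19 (SE 0.13). The matricellular genes Ccn1, Ccn4 and Ccn2 had log2 fold changes of 1.55, 1.20 and 0.93, and all their AGR values exceeded their NME values. Adamts1, a protease that cleaves thrombospondins, did not pass with a log2 fold change of -0.01. Thsd4, a protein of fibrillin microfibrils, fell with -0.80, followed by Spon2 with -0.68 and Adamts15 with -0.17. The mean of Thsd4 was under the overall median in AGR cells, and that of Adamts15 in both lines. The calls of Spon2 and Adamts15 were lost in several alternatives.

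Signaling partners of the receptors were read next. Of 13 partners of CD47, 2 were higher and 2 were lower (30.8% against 24.2% of all genes, median -0.00), and without single arrays between 1 and 4 of these 13 passed. Gnai1, an inhibitory G protein subunit, had a log2 fold change of -0.56 and Gnai2 of 0.21. Qpctl, the enzyme that modifies CD47 so that SIRPα can bind, had 0.46. Bnip3 had -1.42 (SE 0.32), with 12.03, 11.68 and 11.94 in NME cells and 10.77, 9.68 and 10.94 in AGR cells, so that AGR replicate 2 stood apart. The calls of Gnai2, Qpctl and Bnip3 were lost without some of the arrays.

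For CD36, 16 genes of its partners and of fatty acid uptake were measured. Of these, 4 were higher and 3 were lower (43.8% against 24.2% of all genes, median -0.01), and 6 were under the overall median in both lines. Whether this share differs from that of genes of like brightness was not tested. Pparg, which drives Cd36 in macrophages and adipocytes, had a log2 fold change of 0.33, and Nr1h3, the liver X receptor α, of -0.71. Fabp5, which carries fatty acids in the cytoplasm, had 0.74, Slc27a1 had 0.47 and Slc27a4 had -0.36. Scarb1, the HDL receptor of the same family as CD36, had 0.54 with means of 10.08 in NME and 10.61 in AGR cells, and Scarb2, its lysosomal relative, had -0.23. The calls of Pparg and Scarb2 were lost in several alternatives.

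Of 23 measured genes reported to regulate Thbs1 transcription, 11 rose and 2 fell (56.5% against 24.2% of all genes), and the median log2 fold change was 0.20 against -0.02 for all genes. Tead2 had a log2 fold change of 1.08, and its NME mean of 7.60 was close to the overall median. Jun had 0.63, Mrtfb, a cofactor of SRF, 0.61 (0.40 as the mean of all its probe sets) and Smad3, which transmits TGF-β signals, 0.48. Id1 fell from 11.28, 11.24 and 11.45 to 10.67, 10.47 and 10.71, a log2 fold change of -0.71 (SE 0.08, adjusted p = 0.0013 from limma). Its AGR values were all below its NME values. Tead4 had -0.19. The calls of Jun, Tead4 and some genes of the list not named here were lost in several alternatives. Myc, Egr1, Atf3, Wwtr1 and Sp1 did not pass, with log2 fold changes of 0.14, -0.23, -0.62, -0.06 and 0.08. Whether any gene of this list bears on the level of Thbs1 in these cells was not tested.

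**Figure D3:**
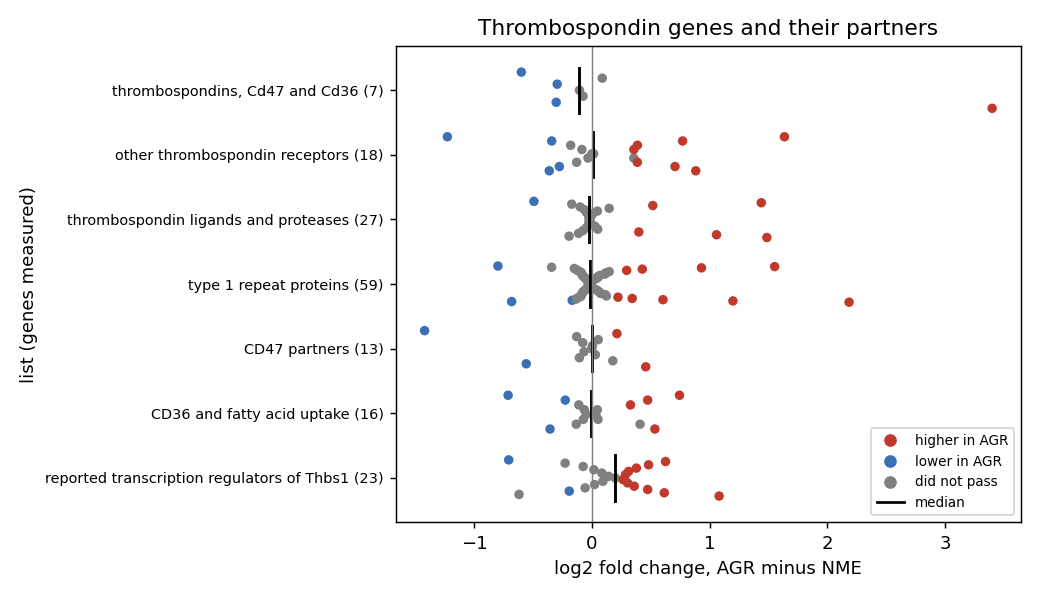
Log2 fold change, AGR minus NME (x axis), of every measured gene of 7 lists (rows, with the number measured). Red marks genes that rose, blue those that fell (adjusted p under 0.05) and gray the rest, and the black bars are medians, at -0.11 for the thrombospondin genes with Cd47 and Cd36 and at 0.20 for the regulators of Thbs1.

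Thrombospondins are made by fibroblasts and platelets and CD36 by adipocytes, endothelium and macrophages, so markers of these cells were read beside the results. Of 10 fibroblast markers, Pdgfra was higher, and the summed intensity was 1915 to 2133 in NME cells and 1950 to 2082 in AGR cells. The mean of Pdgfra was 7.41 in NME cells, under the overall median, and 7.79 in AGR cells. Of 4 measured platelet markers, Ppbp, a chemokine gene, rose with a log2 fold change of 3.79, whereas the other 3 (Itga2b, Gp9 and Pf4) did not pass. Their sum without Ppbp was 529 to 584 in NME cells and 528 to 539 in AGR cells. None of 7 endothelial markers passed, with sums of 966 to 1056 and 937 to 1005. Of 8 macrophage and immune markers 2 were higher (Cd68 and Csf1r) and Cd14 was lower, with sums of 4170 to 4514 and 3175 to 3726. These sums mostly follow Cd14, the brightest of the markers (mean log2 intensity 11.68 in NME and 11.08 in AGR cells). Ptprc and Adgre1 were faint in both lines, and the mean of Csf1r was 7.56 in NME cells, under the overall median, and 7.83 in AGR cells. Of 6 adipocyte markers Cidec was lower, with sums of 1256 to 1450 and 762 to 850. The lower sum mostly follows Cidec, the brightest of them (mean 9.76 in NME and 8.47 in AGR cells). Adipoq, Lep and Plin1 were below the median in both lines. None of 8 markers of cartilage and tendon passed, with sums of 4720 to 4980 and 4504 to 5364. The sums of this list mostly follow Sox9, the brightest of its markers (mean 11.48 in NME and 11.35 in AGR cells). Whether such cells had a part in the values of Thbs1 and Cd36 was not tested.

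The protein-coding neighbours of the genes that passed were compared next. Thbs1 lies between Rasgrp1 and Fsip1, neither of which passed, with log2 fold changes of -0.10 and 0.05 at intensities under the overall median. Thbs3 lies between Mtx1, a gene of mitochondrial import, and Muc1, the epithelial mucin. Muc1 was at 11.94, 11.60 and 11.83 in NME cells and at 10.06, 9.86 and 10.00 in AGR cells. This was a log2 fold change of -1.82 (SE 0.10, adjusted p = 4.32e-05 from limma), with all AGR values below all NME values. Mtx1 had -0.26 and did not pass (adjusted p = 0.194 from limma). Next to Cd47, Ift57 and Bbx did not pass, with -0.11 and 0.06. Next to Cd36, Sema3c had 0.48, opposite in sign to Cd36, and Gnat3 did not pass with -0.08.

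**Figure D4:**
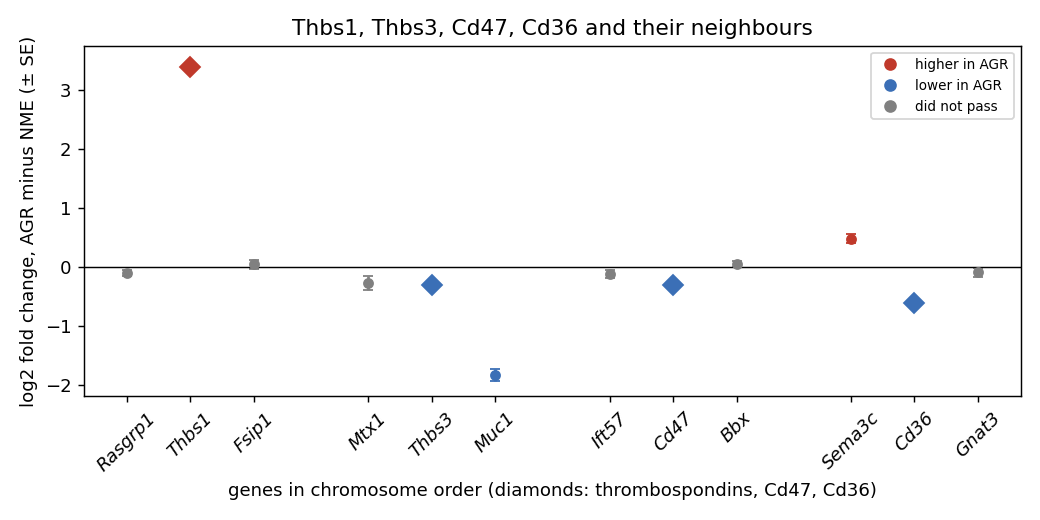
Log2 fold change, AGR minus NME (y axis, ± SE), of Thbs1, Thbs3, Cd47 and Cd36 (diamonds) and of the nearest named protein-coding gene on each side (circles), in chromosome order. Red rose, blue fell (adjusted p under 0.05), gray is the rest, and Muc1 at -1.82 is the neighbour with the largest difference.

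The genes whose pattern over the 6 arrays was most like that of Thbs1 were Ptpn22, S100a7a, Wnt7a, Ppbp and Ccbe1. Likeness was the root mean square difference of the log2 profiles, each centred on its own NME mean, and it was 0.29, 0.30, 0.32, 0.32 and 0.33 in this order. The log2 fold changes were 3.72, 2.99, 3.07, 3.79 and 3.72. With arrays of only 2 cell lines, this measure mostly ranks genes by the size of their difference, and it is given as a description. In NME cells Ptpn22 and Wnt7a were under the overall median, while Thbs1 was at 9.59.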

How the data were processed

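Total RNA of NME and AGR cells had been hybridized to Affymetrix Mouse Gene 1.0 ST arrays, 3 for each line, grouped here by the sample titles. The authors deposited intensity values on a linear scale. The submitters' processing notes name MAS5 with no version, although this array type lacks the mismatch probes that MAS5 uses, so the normalization is not known. Log2 was taken with no offset. Of 35557 probe sets, 21789 carried 1 gene symbol in the platform annotation, and the brightest represented each of 19938 genes. Lines were compared with limma 3.58.1 in R 4.3.3 (lmFit, eBayes), with Benjamini-Hochberg adjustment over all 19938 genes. The number of arrays limits the precision.

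The genes and gene lists were chosen with earlier results of these data known. Listed genes without a probe set of their own were not analysed here. Named were all 7 genes, every other receptor that passed, up to 4 genes a direction of the other lists (all where 5 or fewer passed), neighbours, and the 5 profiles nearest to Thbs1. Genes named although they did not pass are given with their values and were chosen after these were seen. The alternatives were quantile normalization, median centring, removal of dim genes (25th percentile or median), averaging the probe sets of a gene, a robust eBayes with a mean trend, the methods' two-sided test, an offset of 16, the replicate number as a block, and leaving out each array. The fit was tested on simulated data.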

Additional observations from a re-analysis of the deposited data

How the results depend on the processing

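Under the 15 alternatives, each of the 7 genes kept its direction and its side of the threshold wherever it was tested. The log2 fold change ranged from 3.32 to 3.45 for Thbs1, from -0.33 to -0.26 for Thbs3 (adjusted p 0.00262 to 0.0358 from limma or the two-sided test of the methods), from -0.33 to -0.27 for Cd47 (adjusted p 0.00146 to 0.023) and from -0.67 to -0.42 for Cd36 (adjusted p 0.000726 to 0.0279). The filters on dim genes removed Cd36, and that at the median also removed Thbs2 and Thbs4, so no value was had there. Between 3275 and 5356 genes passed in all, against 4819.

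Of 60 other genes that passed (those of the lists of receptors, ligands, type 1 repeat proteins, receptor partners and regulators, 2 neighbours and the 5 profiles like Thbs1), 41 passed under every alternative that held them. With the two-sided test of the methods 16 were lost (adjusted p 0.0611 to 0.15). Without NME replicate 1, 2 or 3 the numbers were 15 (Lrp8, Spon2, Bnip3 and Jun among them), 14 (Lrp8, Gnai2, Bnip3, Pparg) and 15 (Spon2, Bnip3, Pparg, Tead4), with adjusted p of 0.0501 to 0.13. Without AGR replicate 1, 2 or 3 they were 10 (Sdc4, Spon2, Qpctl, Tead4), 3 (Adamtsl4, Spon2, Jun) and 15 (Lrp8, Vldlr, Vegfa, Pparg), with adjusted p of 0.0517 to 0.161. Median centring lost Adamts15 and Scarb2 (adjusted p 0.0639 and 0.0655). Fsip1, which did not pass, had -0.026 without NME replicate 1 and up to 0.117 without NME replicate 3, in place of 0.05. The cause of these losses was not tested. The alternatives were not run for the cell type markers.

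Same-numbered arrays of the lines had correlations of -0.126, 0.327 and 0.259 between their deviations from the line means. Those of differently numbered arrays ran from -0.467 to 0.358 and so spanned these values, and the numbers were not taken as pairs. With the replicate number as a block 5040 genes passed, the calls of the 7 genes were unchanged (log2 fold change of Thbs1 3.40, of Thbs3 -0.30, of Cd47 -0.30 and of Cd36 -0.60), and Adamts15 lost its call.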
